A study of Mus musculus with 12 samples.

Results

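The 10 genes described here are the prostaglandin and leukotriene pathway genes Ptger2, Ptger4, Ptgir, Ptgs1, Ptgs2, Ptges, Hpgds, Alox5, Alox5ap and Lta4h, out of 24445 gene symbols counted in sorted mouse cardiac macrophages. They were chosen by name, and selected on their measured levels in these same libraries, so their differences between groups are given as a description and no p-value is given for them. Macrophages were sorted from hearts of C57BL6/J mice, adult males by the study's methods, in 3 groups of 4 mice. The control group (Ct) carried a saline pump, for a time that the labels do not give. The ECH group (early concentric hypertrophy) received isoproterenol, an agonist of β-adrenergic receptors, at 30 mg/kg/day from a pump for 14 days, and the HF group (heart failure) received the same dose for 28 days. The labels name no transgene or deletion, all mice carried a pump, and the sorted cells were CD14+/CD64+. The groups were compared to learn how the macrophage transcriptome differed between the hypertrophic stage, the failing stage and control hearts.

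Prostaglandins and leukotrienes are lipid mediators made from arachidonic acid, which phospholipase A2 enzymes release from membranes. Cyclooxygenases (Ptgs1, Ptgs2) turn it into PGH2, which terminal synthases convert into PGE2 (Ptges), PGD2 (Hpgds), prostacyclin or thromboxane, and these act on receptors such as the PGE2 receptors EP2 (Ptger2) and EP4 (Ptger4) and the prostacyclin receptor IP (Ptgir). EP2, EP4 and IP all signal through cyclic AMP. In the other branch, 5-lipoxygenase (Alox5) and its activating protein FLAP (Alox5ap) make leukotriene A4, which Lta4h hydrolyses into the neutrophil attractant leukotriene B4. Macrophages are a known source of both kinds of mediator and respond to PGE2 through EP2 and EP4.

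Ptger2 lies on chromosome 14, at 44988195 to 45003820 on the plus strand (GENCODE annotation of GRCm38), and Ptger4 on chromosome 15, at 5206661 to 5244187 on the minus strand. The stretches of 250 bases before the RefSeq start sites of both genes are shown because these are the PGE2 receptor genes among the members. No link between these sequences and the levels of the genes was tested. Both are written 5′ to 3′ on the gene's strand from RefSeq's GRCm38 table. Lower case marks that no searched motif was found.
Ptger2, chr14:44987861-44988110, plus strand: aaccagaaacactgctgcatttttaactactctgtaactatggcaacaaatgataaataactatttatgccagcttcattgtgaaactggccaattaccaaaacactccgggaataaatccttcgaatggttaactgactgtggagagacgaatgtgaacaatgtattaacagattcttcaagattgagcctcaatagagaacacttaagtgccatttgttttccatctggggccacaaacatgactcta
Ptger4, chr15:5244188-5244437, minus strand: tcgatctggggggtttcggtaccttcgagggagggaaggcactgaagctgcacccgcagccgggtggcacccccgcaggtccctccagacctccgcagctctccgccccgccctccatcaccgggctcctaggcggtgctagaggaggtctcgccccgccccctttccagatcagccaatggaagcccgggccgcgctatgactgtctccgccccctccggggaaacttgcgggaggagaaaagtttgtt
The Ptger2 window held 38% G and C, against 66.8% in Ptger4. The cyclic AMP response element TGACGTCA, its shorter core TGACG (contained in the full element) and TATAAA were searched on both strands and were found in neither window, nor in those of the other 7 members that had an entry. Only the 250 bases before the annotated start were searched. A motif farther upstream, or downstream of that start, would have been missed. Among 32851 windows of the same length, 1.546% held TGACGTCA, 17.77% held TGACG and 12.37% held TATAAA.

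The libraries held 88466559 to 111180291 counted reads each, with 13600 to 15940 genes detected. The 8 markers of the sorted cells (Cd14, Fcgr1, Itgam, Csf1r, Adgre1, Cd68, C1qa and Mertk) summed to 10662 to 14121 CPM in every library. CPM are counts scaled to the library size corrected by edgeR's TMM factors. Of the 8 markers, 0 were called in any comparison, but the sum hides differences in Mertk and Itgam. Mertk averaged 317 CPM in the ECH group and 117 CPM in each other group. Its HF libraries all lay below its ECH libraries, and 3 of 4 ECH libraries were above the highest Ct library. All ECH libraries of Itgam (mean 709 CPM) lay above those of Ct (373 CPM). The fitted log2 differences between ECH and Ct were 1.43 for Mertk, 0.92 for Itgam and -0.09 to 0.19 for the rest. The libraries Ct 2 and HF 1 stood apart, with 127 and 188 genes at 0 that had at least 100 counts in each other library of their group, against at most 7 in the other libraries. The labels number the libraries 1 to 6 more than once, so they may have been made in 2 sets, which neither the labels nor the methods describe. By 1 reading, ECH 1 and ECH 2 go with the Ct libraries and ECH 3 and ECH 4 with the HF libraries. The titles also give ECH 3 and ECH 4 a common code, which ECH 1 and ECH 2 do not share.

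A gene was called where edgeR's quasi-likelihood test over 14608 genes gave a false discovery rate (FDR, Benjamini-Hochberg) under 0.05 and a change of at least 2-fold. None of the 10 members met this rule in any comparison, whereas 0.356% of all genes tested did so between ECH and Ct, 0.377% between HF and Ct, and 0% between HF and ECH. All 10 passed the filter on low counts, Ptges through its ECH and HF libraries. With DESeq2 in place of edgeR, 1 member (Ptger2, ECH against Ct) met the rule, in a fit that called 248 genes or 1.70% of all genes tested. The median log2 difference of the members was -0.04 for ECH against Ct, 0.21 for HF against Ct and 0.15 for HF against ECH, beside medians of 0.01, -0.01 and -0.02 over all genes tested. The groups of 1 member, Ptger2, did not overlap between ECH and Ct, where 7.97% of all genes did not overlap, and 0 members were free of overlap between HF and Ct or between HF and ECH (9.04% and 6.92% of all genes).

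**Figure D1:**
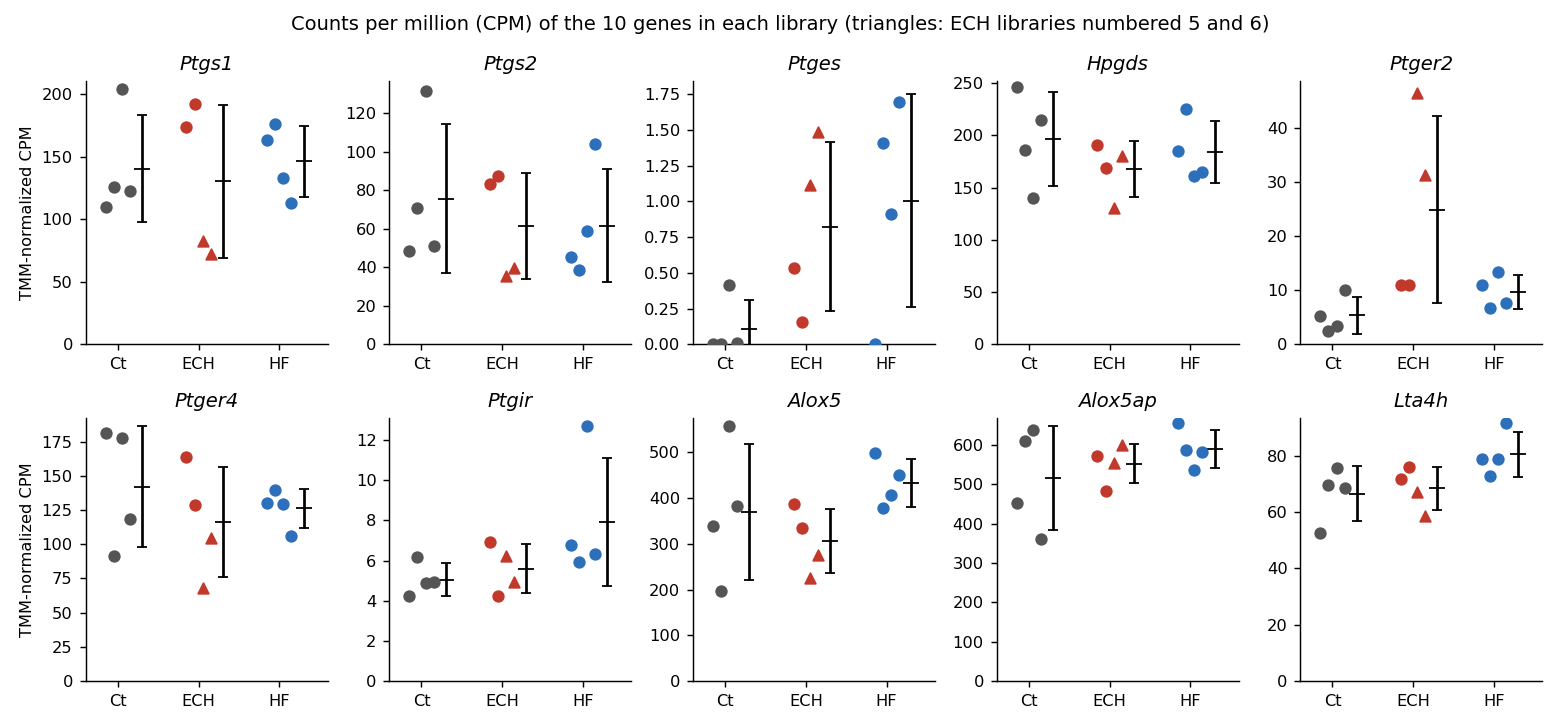
TMM-normalized CPM (y axes from 0) of the 10 genes in each library, by group (x axes), with the mean and SD of 4 mice beside the points. The 4 ECH libraries all lay above the Ct libraries for Ptger2 (10.9 to 46.5 against 2.54 to 10.1 CPM), and the ECH libraries numbered 5 and 6 (triangles) were the lowest of their group for Ptgs1, Ptgs2, Ptger4 and Alox5.

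Ptger2, which encodes EP2, had the largest difference among the members measured above 1 CPM. It was read at 5.24, 2.54, 3.42 and 10.1 CPM in Ct 1 to 4, at 10.9, 10.9, 46.5 and 31.4 CPM in ECH 1 to 4, and at 11.04, 6.66, 13.3 and 7.61 CPM in HF 1 to 4. Every ECH library was above every Ct library, although ECH 1 and ECH 2 were only just above Ct 4, and the HF libraries overlapped both other groups. The means were 5.33 ± 3.39 (Ct), 24.9 ± 17.3 (ECH) and 9.66 ± 3.08 CPM (HF; SD, n = 4 each), from 218 to 5179 reads a library. The fitted log2 difference was 2.22 (SE 0.54, 95% interval 1.07 to 3.38) for ECH against Ct, or 4.67-fold. For HF against Ct it was 0.86 (SE 0.52, interval -0.26 to 1.97), and for HF against ECH -1.37 (SE 0.52, interval -2.49 to -0.24).

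The size of the Ptger2 difference depended on ECH 3 and ECH 4. With ECH 3 left out the log2 difference between ECH and Ct was 1.73, with Ct 4 left out 2.74, and with Ct 2 and HF 1 left out together 1.98. When only the libraries that the first reading of the numbers puts in 1 set were compared (ECH 1 and ECH 2 with the 4 Ct libraries), it was 1.02, and ECH 3 and ECH 4 against the 4 HF libraries gave -2.01 for HF against ECH. That fit, chosen after seeing the data, called Ptger2 among 370 genes (2.49% of those it tested), where the fit of all libraries called 0. With that set as a covariate, the difference between HF and Ct was -0.98, and Ptger2 was called for HF against ECH among 272 genes (1.86%). Under the second reading of the numbers, with the 4 ECH libraries and Ct 1 and Ct 2 in 1 set, ECH against Ct gave 2.67. The sets were not described in the sources used here, and their part in the result cannot be told apart from differences between mice.

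Reads of a gene and of a neighbour on the opposite strand cannot be told apart, since the library kit does not mark strand. The exons of Ptger2 share 246 bases with the antisense gene Gm17173 and 144 with Gm49364, those of Ptger4 1015 bases with the pseudogene Gm15937 and 82 with Ttc33, those of Ptgs1 148 with Gm43621, and those of Alox5ap 189 with Gm19719. The other 6 members share no exonic base with an annotated neighbour.

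A list of 12 genes of the response to tissue dissociation had lower means in both infused groups, with 12 of 12 fitted below Ct in ECH and in HF and 0 of 12 called. Its sum was 40338 to 53221 CPM in Ct, 17895 to 40786 CPM in ECH and 19721 to 33639 CPM in HF. The B cell list summed to 96.6 to 446 CPM in Ct, 34.3 to 79.8 CPM in ECH and 50.1 to 74.6 CPM in HF, with 5 of 5 measured genes fitted lower in both infused groups (Pax5 was under 1 CPM in every library). The 8 endothelial genes summed to 107 and 75.6 CPM in ECH 3 and ECH 4, the libraries highest for Ptger2, and to 24.7 to 67.2 CPM in the other 10, with 0 of 8 called. ECH 1 and ECH 2 (39.2 and 44.4 CPM) lay within the Ct range, and Fabp4 held most of the ECH sum (mean 45.0 CPM). Of the 8 genes, 6 were fitted above Ct in ECH, from 0.18 (Fabp4) to 2.08 (Tek, whose ECH libraries all lay above the Ct libraries) on the log2 scale, and Pecam1 and Cdh5 were fitted below (-0.11 and -0.51). The 8 fibroblast genes were all fitted higher in both infused groups, with 0 called and sums of 302 to 815 CPM in Ct, 499 to 1279 CPM in ECH and 638 to 1235 CPM in HF. The 6 genes of Ly6C-high monocytes summed to 394 to 655 CPM in Ct, 546 to 730 CPM in ECH and 544 to 922 CPM in HF. Among single markers, the ECH libraries lay above all Ct libraries for Postn (means 21.1 and 1.94 CPM), Flt3 (27.1 and 3.17), Chil3 (115 and 37.6) and Ly6c2 (19.8 and 9.52), none of them called. Among the list sums, log2 Ptger2 CPM correlated most strongly with the mast cell list given below (Pearson's r = -0.77), the dissociation list (-0.73) and the B cell list (-0.71). For the endothelial list r was 0.53. ECH 3 also had the lowest dissociation sum of all libraries. The part of these lists in the Ptger2 values was not tested. In such bulk libraries, fewer cells of a type and less RNA per cell cannot be told apart.

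Ptger4, which encodes EP4, was the most abundant of the 4 PGE2 receptor genes and did not share the Ptger2 pattern. It was at 181, 91.5, 178 and 118 CPM in Ct 1 to 4, at 163, 128, 67.8 and 104 CPM in ECH 1 to 4, and at 130, 140, 129 and 106 CPM in HF 1 to 4. The lowest library of all was ECH 3, which was the highest for Ptger2, and all 3 groups overlapped. The log2 difference was -0.29 (SE 0.26, interval -0.85 to 0.27) for ECH against Ct and -0.17 (SE 0.26, interval -0.73 to 0.39) for HF against Ct. With the first reading of the library sets as a covariate, the HF difference turned to 0.59.

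Set side by side per kb of exons (CPM per kb), the balance of the PGE2 receptor genes differed between libraries. Ptger2 made up 3.27, 2.76, 2.14 and 8.27% of the summed level of Ptger1, Ptger2, Ptger3 and Ptger4 in Ct 1 to 4, 6.96, 8.21, 37.5 and 22.5% in ECH 1 to 4, and 8.72, 5.16, 10.3 and 6.64% in HF 1 to 4. Its share was thus high in ECH 3 and ECH 4 and at most 10.3% in the other 10 libraries. Ptger4 held 75.4 to 88.4% in Ct, 42.8 to 81.6% in ECH and 72.1 to 84.4% in HF. Ptger1, whose product EP1 signals through calcium, held most of the rest, and Ptger3 was at 0.41 CPM on average.

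Ptgir, the prostacyclin receptor gene, was low throughout. It was at 4.24, 6.18, 4.86 and 4.91 CPM in Ct 1 to 4, at 6.93, 4.25, 6.24 and 4.92 CPM in ECH 1 to 4, and at 6.78, 5.94, 12.7 and 6.32 CPM in HF 1 to 4. One HF library, HF 3, lay far above all others, and the groups overlapped. The log2 difference was 0.65 (SE 0.32, interval -0.04 to 1.35) for HF against Ct and 0.15 (SE 0.32, interval -0.55 to 0.84) for ECH against Ct. Without HF 3, the difference between HF and Ct was 0.33. Of the other 6 prostanoid receptor genes, 4 were tested and 0 were called, and Ptgdr and Ptgdr2, which encode the PGD2 receptors, did not pass the filter on low counts (at most 25 and 31 reads in any library).

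**Figure D2:**
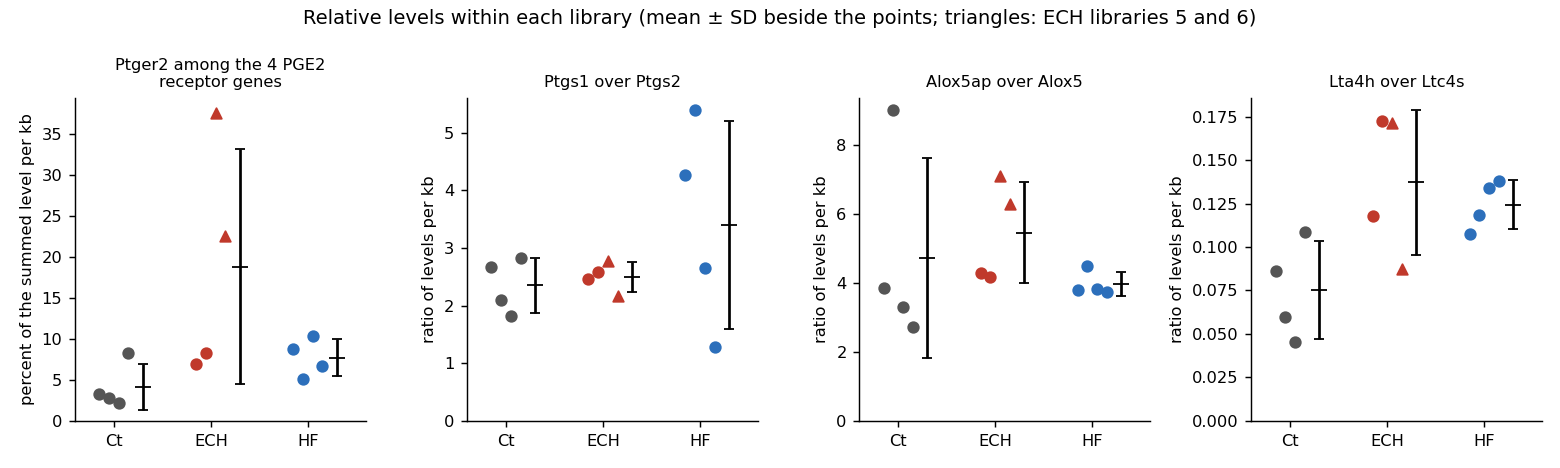
Share of Ptger2 among the 4 PGE2 receptor genes (percent) and 3 ratios between genes, all from levels per kb of exons, in each library, with mean and SD (n = 4). The ECH libraries numbered 5 and 6 (triangles) were the highest for the Ptger2 share (22.5 and 37.5%), and Ptgs1 exceeded Ptgs2 in all 12 libraries.

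The cyclooxygenase genes were both well measured, with overlapping groups. Ptgs1, the constitutive form, was at 110, 126, 204 and 123 CPM in Ct 1 to 4, at 174, 192, 83.0 and 72.6 CPM in ECH 1 to 4, and at 164, 176, 133 and 113 CPM in HF 1 to 4. The ECH group split into a high pair (ECH 1 and ECH 2) and a low pair (ECH 3 and ECH 4) and the 4 HF libraries all lay above the low pair. Ptgs2, the inducible form, was at 48.5, 70.8, 132 and 51.2 CPM in Ct, at 83.0, 87.4, 35.4 and 39.6 CPM in ECH, and at 45.2, 38.4, 59.0 and 104 CPM in HF, in the same order of libraries. It split the ECH group into the same pairs, and its highest value was in Ct 3.

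For ECH against Ct the log2 difference was -0.11 (SE 0.31, interval -0.77 to 0.55) for Ptgs1 and -0.30 (SE 0.40, interval -1.17 to 0.57) for Ptgs2. For HF against Ct it was 0.06 (SE 0.31, interval -0.60 to 0.72) and -0.29 (SE 0.40, interval -1.17 to 0.58). These values depended on the library sets: with the first reading as a covariate, the difference between HF and Ct was 1.29 for Ptgs1 and 0.89 for Ptgs2, and ECH 3 and ECH 4 against the HF libraries alone gave 0.91 for Ptgs1 and 0.72 for Ptgs2 for HF against ECH. With the second reading as a covariate, the difference between HF and Ct was -0.16 for Ptgs1 and -0.57 for Ptgs2. Within each library the level per kb of Ptgs1 was 1.29 to 5.399 times that of Ptgs2, and the ratio was 2.35 ± 0.47 in Ct, 2.50 ± 0.25 in ECH and 3.40 ± 1.81 in HF (SD, n = 4). The widest spread was among the HF libraries, where the lowest and the highest ratio of all 12 libraries were both found. A list of 7 platelet genes, a cell type rich in Ptgs1 product, summed to 9.68 to 19.7 CPM in Ct, 7.84 to 68.5 CPM in ECH and 47.1 to 93.8 CPM in HF, with 0 called. Ppbp carried these sums (means of 13.5 CPM in Ct and 72.8 CPM in HF), while Treml1 had means of 1.21 and 0.46 CPM, Itga2b 0.61 and 0.80 CPM, and Gp1bb, Gp9 and Gp6 were under 1 CPM in every library.

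Ptges, the inducible PGE2 synthase, was near the detection limit. It was at 0, 0, 0.41 and 0.01 CPM in Ct 1 to 4, at 0.53, 0.16, 1.11 and 1.49 CPM in ECH 1 to 4, and at 0, 1.41, 0.91 and 1.70 CPM in HF 1 to 4. A count of 0 allows up to 3 reads, or 0.035 CPM in Ct 2, and the largest count in any library was 190 reads. The groups overlapped through Ct 3 and HF 1, and the latter is a library in which many genes were missing. The fitted log2 difference for ECH against Ct was 2.94 with an SE of 1.79 and an interval from -0.92 to 6.80, so neither its sign nor its size was set by these libraries. The other PGE2 synthase genes were far more abundant per kb, at 51.5 CPM per kb for Ptges3 and 4.20 for Ptges2 over all libraries against 0.16 for Ptges.

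Hpgds, the haematopoietic PGD2 synthase, was the more abundant of the 2 member synthases. It was at 246, 186, 141 and 215 CPM in Ct 1 to 4, at 191, 168, 130 and 181 CPM in ECH 1 to 4, and at 185, 225, 161 and 165 CPM in HF 1 to 4. The groups overlapped, and the log2 difference was -0.23 (SE 0.18, interval -0.63 to 0.16) for ECH against Ct and -0.10 (SE 0.18, interval -0.49 to 0.30) for HF against Ct. Hpgds is also a gene of mast cells, whose 8 listed markers summed to 17.5 to 103 CPM in Ct, 12.8 to 79.1 CPM in ECH and 23.4 to 80.0 CPM in HF. Hdc held most of the Ct sum, with means of 44.1 (Ct), 16.7 (ECH) and 28.5 CPM (HF). Cpa3 (1.79, 3.84 and 8.02 CPM) and Cma1 (2.59, 4.28 and 9.40 CPM) had their lowest means in Ct. Of the 7 mast cell genes tested, 5 were fitted above Ct in each infused group, with 0 called. Per kb, Hpgds was 0.81 to 2.04 times as abundant as Tbxas1, the thromboxane synthase gene, whereas the prostacyclin synthase gene Ptgis and Ptgds, the other PGD2 synthase gene, averaged 0.53 and 0.43 CPM per kb, against 28.5 for Hpgds.

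**Figure D3:**
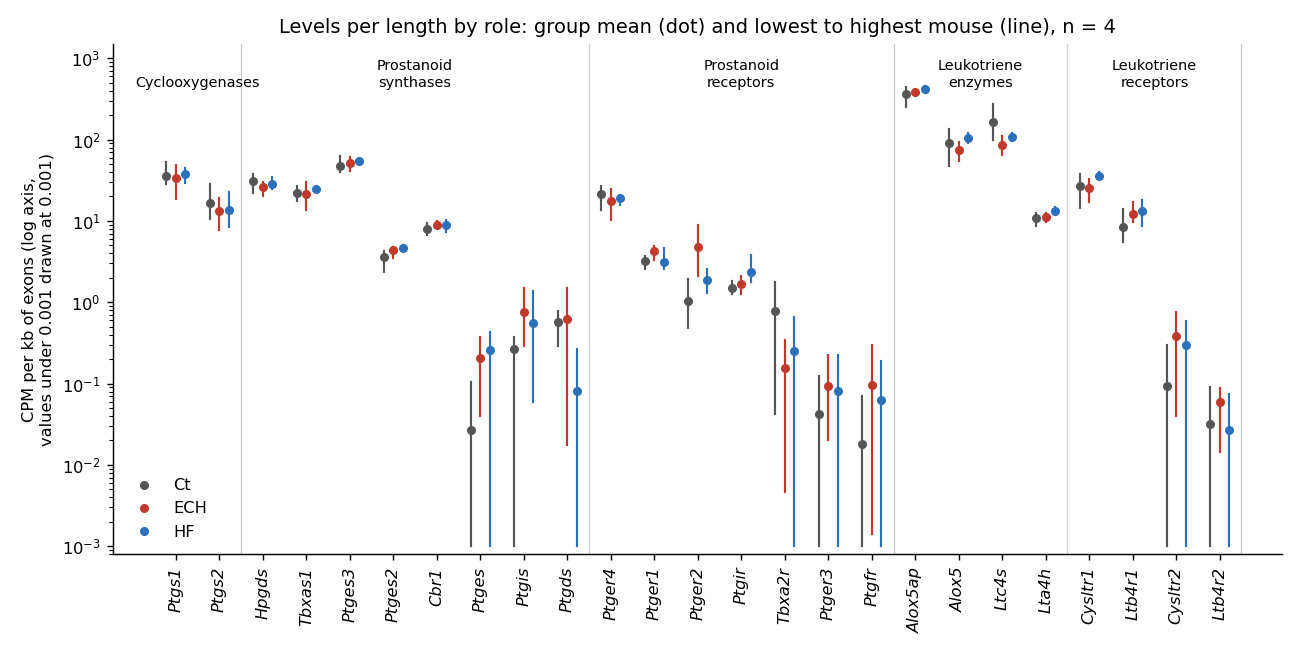
Level per kb of exons (CPM per kb, log axis) of the members and of the other prostanoid and leukotriene synthases and receptors named on the x axis, by role, with no other gene of the pathway drawn, as the mean (dot) and the lowest to highest mouse (line) of each group, n = 4. Alox5ap, Ltc4s and Alox5 had the highest levels of the genes drawn, and lines that reach the lower edge mark genes with a library at or near 0.

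Alox5ap and Alox5 were the most abundant members per kb, and the groups of all 3 leukotriene members overlapped in every comparison. Alox5 was at 339, 196, 558 and 383 CPM in Ct 1 to 4, at 386, 335, 226 and 276 CPM in ECH 1 to 4, and at 498, 379, 406 and 450 CPM in HF 1 to 4. Both extremes were Ct libraries, and 3 of the 4 HF libraries lay above the highest ECH library. Its log2 difference was -0.27 (SE 0.26, interval -0.83 to 0.28) for ECH against Ct, 0.23 (SE 0.26, interval -0.32 to 0.79) for HF against Ct and 0.50 (SE 0.26, interval -0.05 to 1.06) for HF against ECH. The Alox5 difference depended on which Ct libraries were kept. Without Ct 2 the difference between HF and Ct was 0.02, and without Ct 3 it was 0.50. It also depended on the library sets. The difference between HF and Ct was 0.76 with the first reading as a covariate and -0.12 with the second, and that between HF and ECH was 0.79 and -0.31.

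Alox5ap was at 452, 611, 639 and 362 CPM in Ct 1 to 4, at 572, 484, 555 and 599 CPM in ECH 1 to 4, and at 655, 588, 536 and 583 CPM in HF 1 to 4. Its spread was 8.91% of the mean in ECH and 8.24% in HF against 25.5% in Ct (coefficient of variation). Its log2 difference was 0.10 (SE 0.17) for ECH against Ct and 0.19 (SE 0.17) for HF against Ct, with intervals of -0.27 to 0.46 and -0.17 to 0.56. Per kb, Alox5ap was 2.73 to 9.01 times as abundant as Alox5.

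Lta4h, which makes leukotriene B4, had the smallest spread between mice of all members in Ct. It was at 52.6, 69.6, 75.8 and 68.5 CPM in Ct 1 to 4, at 71.9, 76.2, 67.1 and 58.5 CPM in ECH 1 to 4, and at 78.9, 72.7, 78.8 and 91.6 CPM in HF 1 to 4. In HF, 3 of 4 libraries were above the highest Ct and the highest ECH library. The log2 difference was 0.27 (SE 0.14, interval -0.03 to 0.58) for HF against Ct and 0.04 (SE 0.14, interval -0.26 to 0.34) for ECH against Ct. Neutrophils use the same enzymes, and their 9 listed markers summed to 358 to 1710 CPM in Ct, 194 to 656 CPM in ECH and 131 to 1267 CPM in HF, with 0 of 9 called. The part of the mast cell, platelet and neutrophil lists in these levels was not tested.

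**Figure D4:**
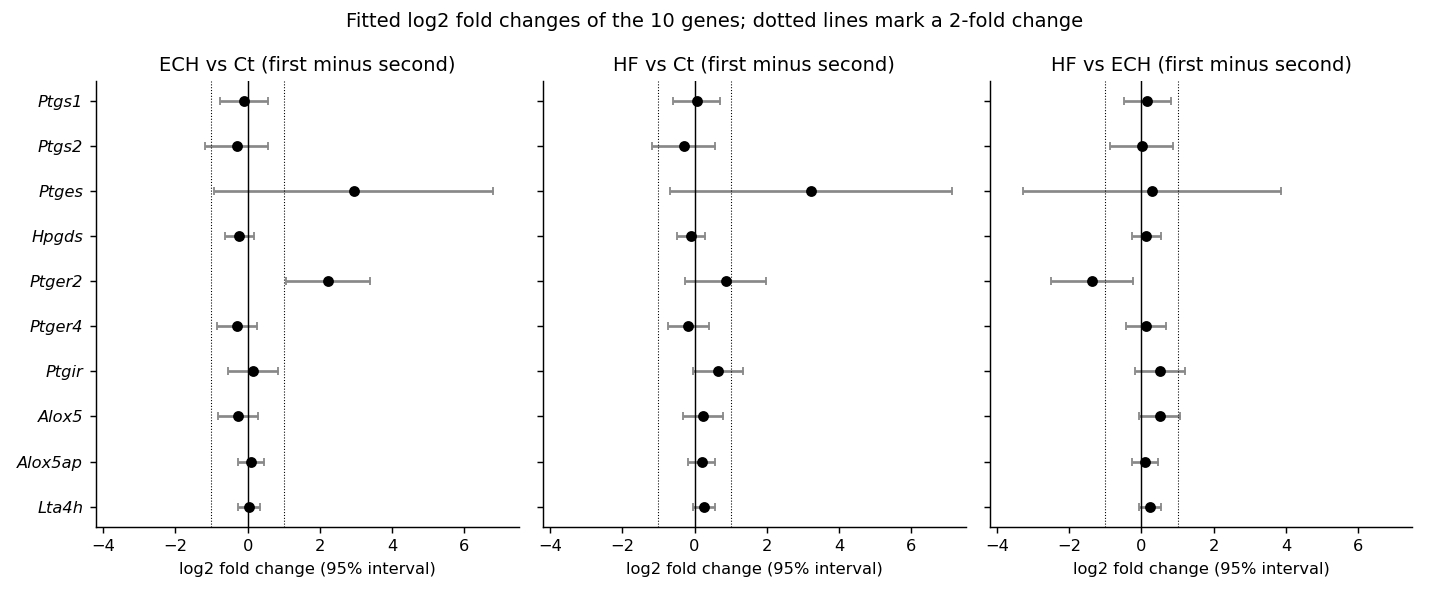
Fitted log2 fold change (x axes) and its 95% interval for the 10 genes in the 3 comparisons, from edgeR's fit of all 12 libraries. Ptges had the widest interval in each comparison, and Ptger2 had the largest difference among the other 9 genes. The genes were selected on these same libraries, so the intervals are given as a description and not read as tests.

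Over all 12 libraries the mean level per kb of exons was 389 CPM per kb for Alox5ap, 89.9 for Alox5, 35.8 for Ptgs1, 28.5 for Hpgds, 19.3 for Ptger4, 14.5 for Ptgs2, 11.8 for Lta4h, 2.56 for Ptger2, 1.86 for Ptgir and 0.16 for Ptges. Ptgir was above Ptger2 in Ct (1.51 against 1.03 CPM per kb) and in HF (2.38 against 1.86) and below it in ECH (1.67 against 4.80).

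The rest of the pathway was read from a list of 52 genes sorted by role, of which 51 were among the symbols counted and 43 were tested. Of these, 1 was called lower between ECH and Ct and 0 were called in the other comparisons. At an unadjusted p under 0.05, 7 genes differed between ECH and Ct (2 higher, 5 lower), 6 between HF and Ct (2 higher, 4 lower) and 5 between HF and ECH (2 higher, 3 lower), beside 11.9%, 16.1% and 7.98% of all genes tested. The median log2 difference over the 43 genes was 0.09, 0.08 and 0.07 in these comparisons, near the medians of all genes given above. The 8 genes that were too low to test were Pla2g4b, Pla2g10, Akr1b3, Ptgdr, Ptgdr2, Slco2a1, Oxgr1 and Alox12b.

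The called gene was Pla2g2d, a secreted phospholipase A2 that frees fatty acids from phospholipids. It was at 104, 99.0, 31.3 and 131 CPM in Ct 1 to 4, at 27.7, 26.0, 11.8 and 12.2 CPM in ECH 1 to 4, and at 30.0, 25.5, 35.0 and 15.6 CPM in HF 1 to 4. It fell from 91.3 ± 42.5 CPM in Ct to 19.4 ± 8.61 CPM in ECH (SD, n = 4), a log2 difference of -2.23 (SE 0.43, FDR 0.038, edgeR), and all 4 ECH libraries lay below all 4 Ct libraries. In HF the mean was 26.5 ± 8.27 CPM, with a log2 difference from Ct of -1.78 (SE 0.42) that missed the threshold (FDR 0.088). The ECH call was kept in 7 of 24 alternatives and in 2 of the 12 fits without 1 library, and the log2 difference stayed between -2.52 and -1.77 in all 24. The B cell and dissociation lists given above were lower in the same groups, and their part in the Pla2g2d difference was not tested. Among the other 6 phospholipase genes tested, 0 were called.

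The next 5 genes by p-value missed the FDR threshold. Hpgd, whose product oxidises and inactivates prostaglandins, averaged 782 ± 191 (Ct), 433 ± 144 (ECH) and 514 ± 101 CPM (HF; SD, n = 4), with log2 differences from Ct of -0.85 (SE 0.25, FDR 0.17, edgeR) and -0.61 (SE 0.25, FDR 0.26). Ltc4s, which joins leukotriene A4 to glutathione, was at 169 ± 83.8, 87.8 ± 22.01 and 108 ± 10.5 CPM, with log2 differences from Ct of -0.95 (SE 0.29, FDR 0.20) in ECH and -0.65 (SE 0.29, FDR 0.30) in HF. Dpep2, a dipeptidase that turns leukotriene D4 into E4, was at 211 ± 83.6, 440 ± 166 and 345 ± 17.6 CPM. Its log2 difference from Ct was 1.06 (SE 0.28, FDR 0.13) in ECH and 0.71 (SE 0.28, FDR 0.25) in HF, and in each infused group 3 of 4 libraries were above the highest Ct library. Dpep2 was called for ECH against Ct by DESeq2 (adjusted p = 0.0087) and, in edgeR, without Ct 3 (FDR 0.039). With the first reading of the library sets as a covariate, the differences between HF and Ct turned to -0.081 for Dpep2 and 0.19 for Hpgd.

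Ptgr1, a reductase that inactivates prostaglandin products and leukotriene B4, averaged 19.4 ± 5.90 (Ct), 25.0 ± 2.00 (ECH) and 32.7 ± 4.81 CPM (HF; SD, n = 4), with a log2 difference of 0.76 (SE 0.21, FDR 0.13, edgeR) for HF against Ct. Fam213b, a prostaglandin F synthase gene, was at 64.9 ± 10.9, 46.4 ± 6.58 and 59.8 ± 2.04 CPM, with a log2 difference of -0.48 (SE 0.15, FDR 0.20) for ECH against Ct. Its HF libraries lay above all ECH libraries, with a log2 difference of 0.37 (SE 0.15, FDR 0.58). Among the 9 tested genes of leukotriene conversion and export, 0 were called in any comparison, and among the 4 tested leukotriene receptor genes 0 were called.

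**Figure D5:**
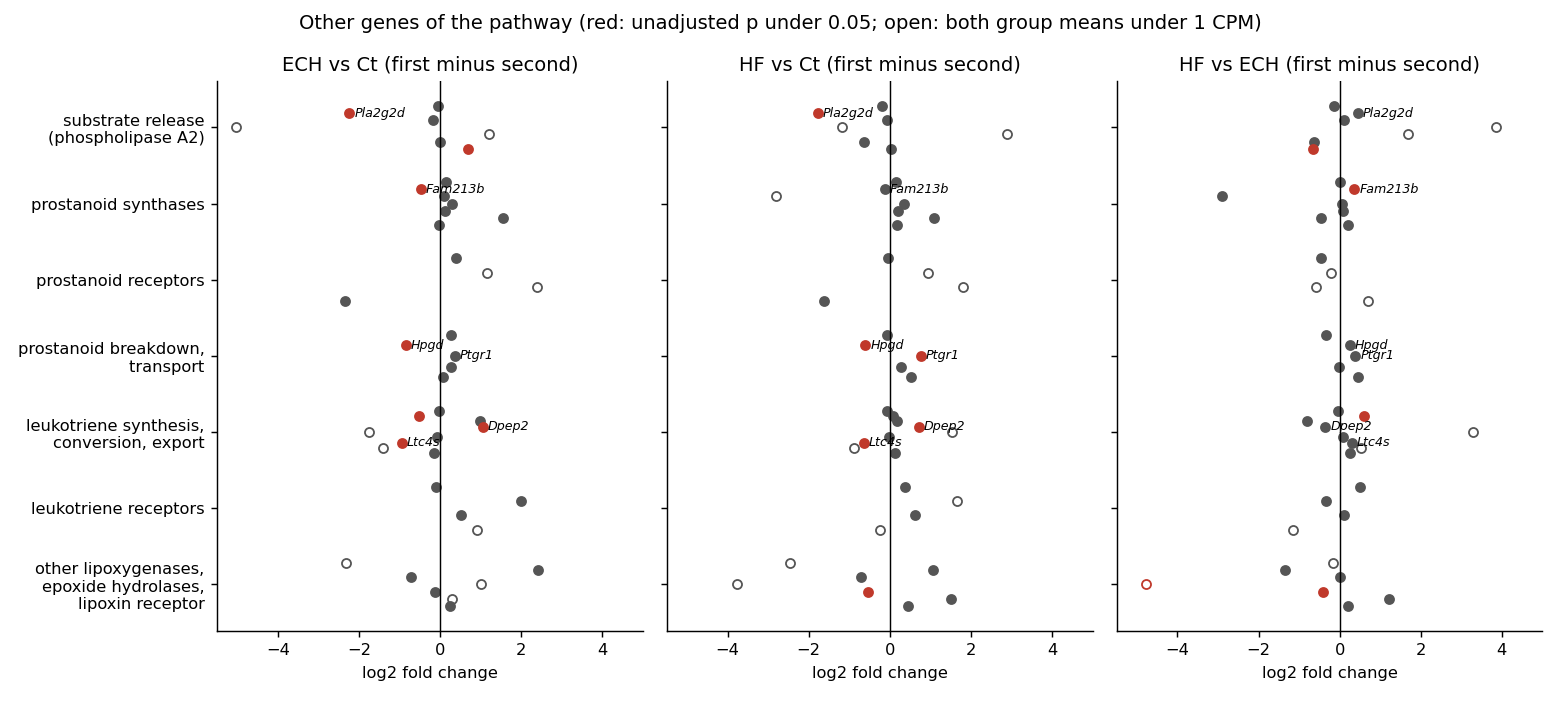
Fitted log2 fold change (x axes) of the 43 other tested genes of the pathway by role in the 3 comparisons. Red points had an unadjusted p under 0.05, open points had both group means under 1 CPM, and labels name the genes with the smallest p, of which Pla2g2d was the 1 called (ECH against Ct).

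The competing routes from leukotriene A4 were compared within libraries. Per kb, the level of Lta4h was 0.045 to 0.11 times that of Ltc4s in Ct, 0.087 to 0.17 times in ECH and 0.11 to 0.14 times in HF. Ltc4s was thus more abundant per kb than Lta4h in all 12 libraries, and the ranges of the 3 groups overlapped.

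The genes whose log2 CPM followed Ptger2 most closely over the 12 libraries, by Pearson's r, were Slc41a2 (r = 0.94), Cd47 (r = 0.94) and Sqrdl (r = 0.93), at mean levels of 39.2, 426 and 89.4 CPM. For Ptgir they were Ndufs1 (r = 0.85), Dscaml1 (r = 0.83) and Klrg1 (r = 0.80). Ndufs1 averaged 76.7 CPM, whereas Dscaml1 and Klrg1 averaged 0.075 and 0.22 CPM. The 12 libraries share their groups and possibly their sets, and these genes were picked as the highest of all genes tested.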

How the data were processed

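Counts per gene were measured by RNA sequencing in 12 libraries of CD14+/CD64+ cardiac macrophages from 12 mice. The authors sorted the cells, prepared libraries with a SMART-Seq v4 low-input kit, sequenced both ends and, per the labels, used FastQC, Trimmomatic, TopHat2, featureCounts and edgeR with mm10 (GRCm38). Their versions were not found in the labels or methods. The deposited values are raw counts of reads per gene symbol, with no normalization, and carry no molecular identifiers. Depth was 88466559 to 111180291 counts a library, and a count of 0 allows up to 3 reads, for counting error only.

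Levels are CPM scaled by TMM factors. Genes passing filterByExpr (14608 of 24445) were fitted with edgeR 4.0.16 (R 4.3.3), a quasi-likelihood model with 1 mean per group over all 12 libraries, and called at an FDR under 0.05 and at least 2-fold. The SE was the log2 difference divided by the root of F, and intervals are at 95%. For log2 CPM, 0.1 was added. Exonic lengths came from GENCODE M21, which may not be the authors' annotation, and promoters from RefSeq, with entries for 9 of the 10 members (not Alox5ap). Prxl2b was matched as Fam213b, and Ptgr3 was not among the symbols analysed. The 10 members are always named. Of the other pathway genes, those called and the 6 with the smallest p are named, and for the 2 members with the smallest p the 3 genes of most similar pattern. Further pathway genes set beside a member were named after their values were seen. The members and lists were chosen with earlier results of these data known. The fit was tested on simulated counts. Alternatives were RLE scaling, DESeq2 1.42.0, limma-voom (limma 3.58.1), other filters, fits of 2 groups, a replicate block, library sets and left-out libraries. Nothing in the labels says more than that each library is a separate sample, so p-values measure the spread between these libraries.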

Additional observations from a re-analysis of the deposited data

Results flagged for a closer look

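Within each group of 4 libraries, the gap between the most extreme library and its nearest neighbour was compared with the range of the group (Dixon's ratio at the 95% level) for the 10 members and the 6 other pathway genes named, 48 groups in all. 3 groups were past it, where chance passes about 1 in 20. Ptgir was at 12.7 CPM in HF 3, with the other HF libraries at 5.94 to 6.78 CPM. Ptgs1 was at 204 CPM in Ct 3, with the other Ct libraries at 110 to 126 CPM. Ptges was at 0.41 CPM in Ct 3, with the other Ct libraries at 0 to 0.01 CPM.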

How the results depend on the processing

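Members met the calling rule in 3 of the fits tried, each time 1 member, Ptger2. These were DESeq2 for ECH against Ct, and for HF against ECH the first reading of the library sets as a covariate (1 member) or in a fit of 1 set alone (1 member). The same fits called 1.70%, 1.86% and 2.49% of all genes they tested, against 0.356% and 0% in the fits reported. In the 12 fits without 1 library, 0 members were called in any comparison. Of 700 member values under the alternatives, 51 changed sign, in 18 of 30 differences, and 669 moved by less than 1 SD of the libraries.

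The number of genes called over the whole table was far less stable. DESeq2 called 248 (ECH against Ct), 336 (HF against Ct) and 47 (HF against ECH), and 2 pathway genes for ECH against Ct (Pla2g2d, Dpep2) and 1 for HF against Ct (Pla2g2d). limma-voom with quality weights called 84 and 130 against Ct, and 1 pathway gene for HF against Ct (Pla2g2d). Fits of only the 2 groups compared called 8 genes and 0 pathway genes for ECH against Ct. Without 1 library, 11 (without Ct 1) to 95 (without Ct 3) genes were called for ECH against Ct and 15 (without Ct 1) to 103 (without Ct 3) for HF against Ct, with 0 to 2 and 0 to 1 pathway genes. The Pla2g2d call between ECH and Ct was kept only without Ct 3 or ECH 2. With Ct 2 and HF 1 left out together, 0 pathway genes were called for ECH against Ct.

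With the library set of the first reading as a covariate, 22, 208 and 272 genes were called for ECH against Ct, HF against Ct and HF against ECH, with 0, 1 and 1 pathway genes (Slco3a1, higher in HF). In that fit the log2 differences for HF against Ct were -0.081 for Dpep2, 0.19 for Hpgd and 0.11 for Fam213b, against -0.12 for Fam213b in the fit of all libraries without the covariate, and each opposite in sign to its value in that fit. Within 1 set of that reading, 1 gene and 0 pathway genes were called for ECH against Ct, and 370 genes and 1 pathway gene (Slco3a1) for HF against ECH. The second reading as a covariate gave 6 genes for HF against Ct, 0 pathway genes for ECH against Ct and a log2 difference of -0.075 for Ltc4s between HF and ECH, and within its sets 0 genes and 0 pathway genes were called for ECH against Ct and 4 genes for HF against Ct. The 4 fits within a set were chosen after seeing the data. The cause of these changes was not tested.

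No pairing of the mice by replicate number was seen. The deviations of same-numbered libraries correlated at -0.08 to 0.08 over 12 pairs, none above 0.1. A replicate block left 22 genes called for ECH against Ct, 18 for HF against Ct, and 0 pathway genes for ECH against Ct, with 0 members called. Depth limits Ptges, at 0 to 190 reads a library, while the other 9 members had at least 218 reads in every library.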
